A study of Mus musculus with 8 samples.

Results

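The collagen genes measured here were the 44 genes whose symbol has the form Col, number, a, number, out of 21789 transcript clusters with exactly 1 gene symbol in the array annotation. A transcript cluster is the unit of this array that merges the probe sets for the exons of a gene. The 44 genes had 46 clusters, because Col6a5 and Col6a6 had 2 each, and such a gene was represented by the cluster of highest mean over the 8 arrays. RNA of the olfactory mucosa was measured in 8 mice at postnatal day 1, with 1 mouse per array. The 4 knockouts were OmpCre:Emx2 fl/fl mice, in which both copies of Emx2, a homeodomain transcription factor gene, carry loxP sites. The 4 controls were littermates, of genotype OmpCre:Emx2 fl/+ for controls 1 to 3, while control 4 had the Emx2 fl/fl genotype and no Cre. All were on a mixed 129 x C57BL/6J background. The Cre recombinase gene sits in the Omp locus and is driven in mature olfactory sensory neurons (OSNs), and by the study's methods no mouse had more than 1 copy of it.

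Collagens are secreted or membrane-bound proteins built from 3 chains wound into a triple helix, and they form the fibrils, networks and filaments of the extracellular matrix. Types I, III and V make the fibrils of bone and connective tissue, types II, IX and XI those of cartilage, and type IV the meshwork of basement membranes. In the nose, cartilage and bone of the septum and turbinates lie beneath the lamina propria, a connective tissue that carries vessels and axon bundles under the olfactory epithelium. The 44 genes were grouped by structure into 11 fibril-forming, 9 fibril-associated, 6 beaded filament (type VI), 6 basement membrane (type IV), 4 transmembrane, 3 short-chain network, 2 multiplexin and 1 anchoring fibril gene, and 2 others, Col26a1 and Col28a1.

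Values are log2 signals, and differences are log2 signal of knockout minus control with ± as the SE of the difference. Signals of different clusters come from different probes and are not set against each other as amounts of mRNA. Emx2 itself was at 10.25, 10.14, 10.34 and 10.14 in knockouts 1 to 4, against 10.83, 10.74, 10.58 and 10.89 in controls 1 to 4. Every knockout was below every control, with a difference of -0.55 ± 0.08 (fold 0.684) that did not pass over all genes (limma adjusted p = 0.201). Markers of the labelled tissue were bright in every mouse, with Cyp2g1 of sustentacular cells and glands at 14.21 to 14.29 in knockouts and 14.17 to 14.31 in controls, and Cnga2, the OSN cyclic nucleotide channel, at 12.25 to 12.49 in knockouts and 12.14 to 12.56 in controls. The medians of the 8 arrays lay between 8.64 and 8.68. Control 2 stood apart on the first principal component, at 32.9 where the other arrays lay between -11.8 and 6.11. Mean signal of 3 Y-linked genes was 7.05, 7.27, 10.7 and 7.51 in knockouts 1 to 4, against 8.09, 10.6, 10.5 and 10.6 in controls 1 to 4.

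Upstream sequences are shown for 4 genes on which the results turn: Col3a1 and Col11a1, the genes of smallest p among the collagens, Col1a2, whose signal followed its partner chain most closely, and Col10a1, which varied most between mice. Each run is the 120 bases before the gene start in RefSeq, assembly GRCm38.p6, on the + strand. Capitals mark matches, on either strand, to the TATA box (searched as TATAAA), the CCAAT box (searched by those letters) and the GC box (searched as GGGCGG).
Col3a1 (chr1:45311418-45311537): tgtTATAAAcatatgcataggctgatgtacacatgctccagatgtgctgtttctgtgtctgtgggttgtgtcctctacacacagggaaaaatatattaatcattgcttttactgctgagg
Col11a1 (chr3:114030420-114030539): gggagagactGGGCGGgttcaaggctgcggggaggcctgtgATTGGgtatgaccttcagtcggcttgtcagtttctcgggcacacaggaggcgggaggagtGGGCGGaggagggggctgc
Col1a2 (chr6:4505498-4505617): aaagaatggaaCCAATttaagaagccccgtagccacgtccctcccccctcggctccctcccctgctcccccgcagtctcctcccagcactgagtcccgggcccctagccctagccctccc
Col10a1 (chr10:34389861-34389980): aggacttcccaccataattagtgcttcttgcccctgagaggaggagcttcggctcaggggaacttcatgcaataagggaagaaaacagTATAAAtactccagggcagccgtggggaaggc
Windows were found in the table used for 35 of the 44 genes, and Col1a1, Col2a1, Col12a1, Col14a1 and Col26a1 were among those without. Each gene entered with its most upstream start. In the 250 bases before the start, TATAAA was found in 5 of these 35 (14.3%, against 13.0% of 27025 promoters), CCAAT in 12 (34.3%, against 34.5%) and GGGCGG in 21 (60.0%, against 33.0%). The 27025 promoters were not limited to genes on the array and were not matched for base content. These letter matches describe the windows and are not binding sites.

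No collagen gene passed the test of knockout against control, while the mean was higher in the knockouts for 37 of the 44 (84.1%, where 51.4% of all clusters were higher). That count rested on control 1 and was 22 without it, where 48.1% of all clusters were higher. The median difference over the collagens was 0.052, against 0.0024 over all clusters, and single differences ran from -0.12 for Col6a5 to 0.29 for Col12a1. By limma with adjustment over all 21789 clusters, 0 collagens were called, as were 0 clusters in all (0%), and the smallest adjusted p of a collagen was 0.910. At an unadjusted p under 0.05, 2 collagens (4.55%) were higher in the knockouts, Col3a1 and Col11a1, where 2.62% of all clusters were, and 0 were lower, where 2.55% were. The methods' t-test counted 0 collagens at that level. All knockouts lay above all controls in 0 collagens (1.62% of all clusters) and below them in 0 (1.48%).

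**Figure D1:**
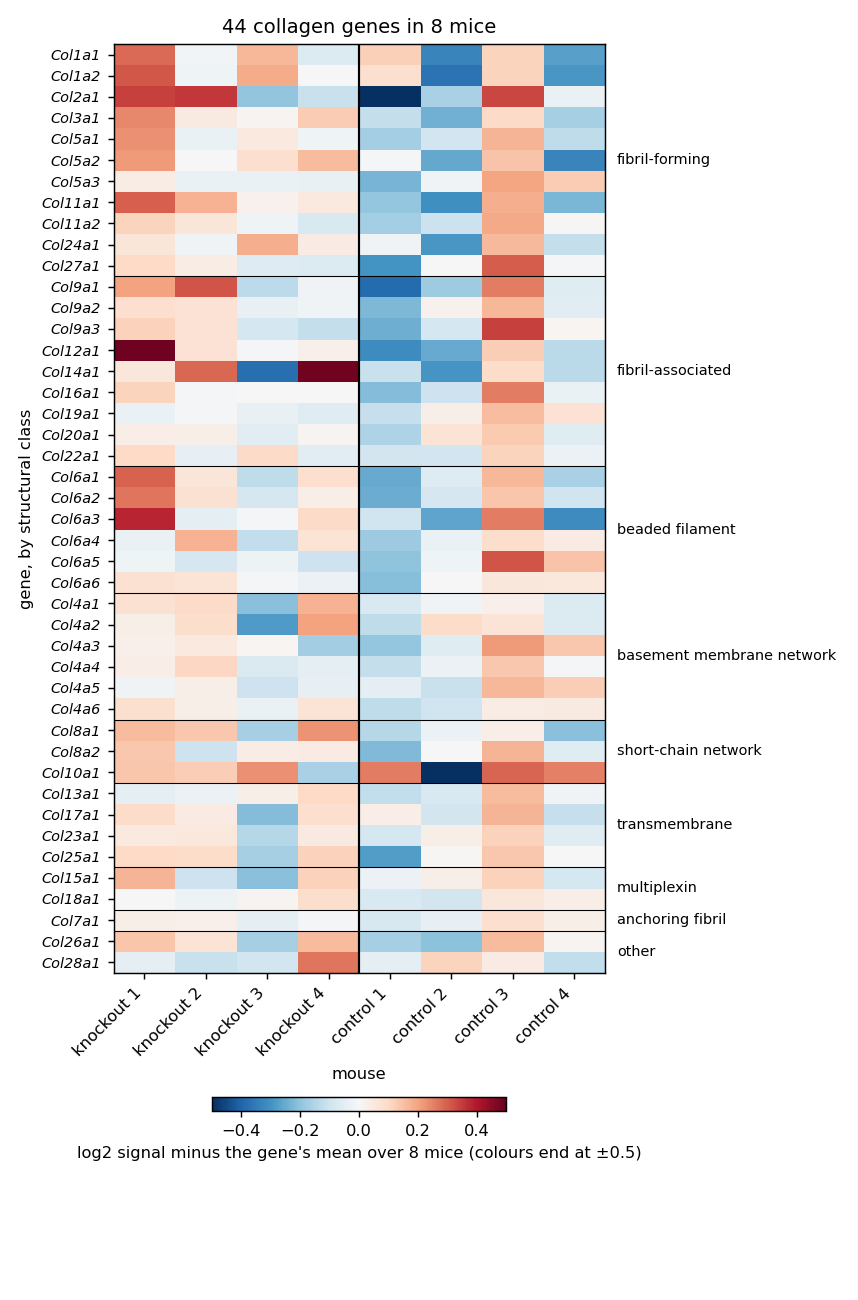
Log2 signal of the 44 collagen genes in each mouse (columns, knockouts left of controls) minus the gene's mean over the 8 mice, grouped by structural class (colours end at ±0.5). Control 1 is the lowest mouse in 24 genes, control 3 the highest in 20 and knockout 1 the highest in 13, so that mice of 1 genotype differ from each other.

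Fibril-forming collagens had 10 of 11 genes with a higher mean in the knockouts and a median difference of 0.19. Col3a1 encodes the single chain of type III, found beside type I in vessels and soft connective tissue. Its signal was 10.96, 10.76, 10.73 and 10.84 in knockouts 1 to 4, against 10.60, 10.47, 10.81 and 10.55 in controls 1 to 4. All knockouts exceeded controls 1, 2 and 4, while control 3 lay among the knockouts, and the difference was 0.21 ± 0.08 (fold 1.16, limma adjusted p = 0.910). Col11a1, a chain of type XI that sets the width of cartilage fibrils, was at 10.79, 10.66, 10.51 and 10.53 in knockouts 1 to 4, against 10.29, 10.18, 10.67 and 10.26 in controls 1 to 4. Control 3 again overlapped with the knockouts, and the difference was 0.27 ± 0.11 (fold 1.21, limma adjusted p = 0.910).

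Type I, the main collagen of bone, is assembled from the products of Col1a1 and Col1a2. Col1a1 was at 13.21, 12.91, 13.09 and 12.86 in knockouts 1 to 4, against 13.05, 12.60, 13.04 and 12.66 in controls 1 to 4. Col1a2 was at 12.75, 12.41, 12.62 and 12.43 in knockouts 1 to 4, against 12.51, 12.06, 12.55 and 12.14 in controls 1 to 4. In both genes controls 2 and 4 were the low mice and controls 1 and 3 lay within the range of the knockouts. Their differences of 0.19 ± 0.13 and 0.24 ± 0.13 did not pass the test, and without control 2 they were 0.106 and 0.153 (0.122 for Col1a1 without knockout 1). Col5a2, a chain of type V, which is built into type I fibrils, showed the same low mice, with 9.80, 9.59, 9.67 and 9.75 in knockouts 1 to 4, against 9.58, 9.33, 9.73 and 9.26 in controls 1 to 4 (0.23 ± 0.11).

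Col2a1, the chain of cartilage type II, was at 10.98, 10.99, 10.44 and 10.53 in knockouts 1 to 4, against 10.11, 10.48, 10.97 and 10.61 in controls 1 to 4. Each group held high and low mice, with control 1 lowest and control 3 level with knockouts 1 and 2, and the difference of 0.19 ± 0.20 was no larger than its SE. It was 0.0497 without control 1 and 0.338 without control 3, the lowest and highest values when 1 mouse was left out. Col5a3, another type V chain, was the 1 fibril-forming gene with a lower mean in the knockouts, at -0.03 ± 0.09, and its sign turned under other settings.

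**Figure D2:**
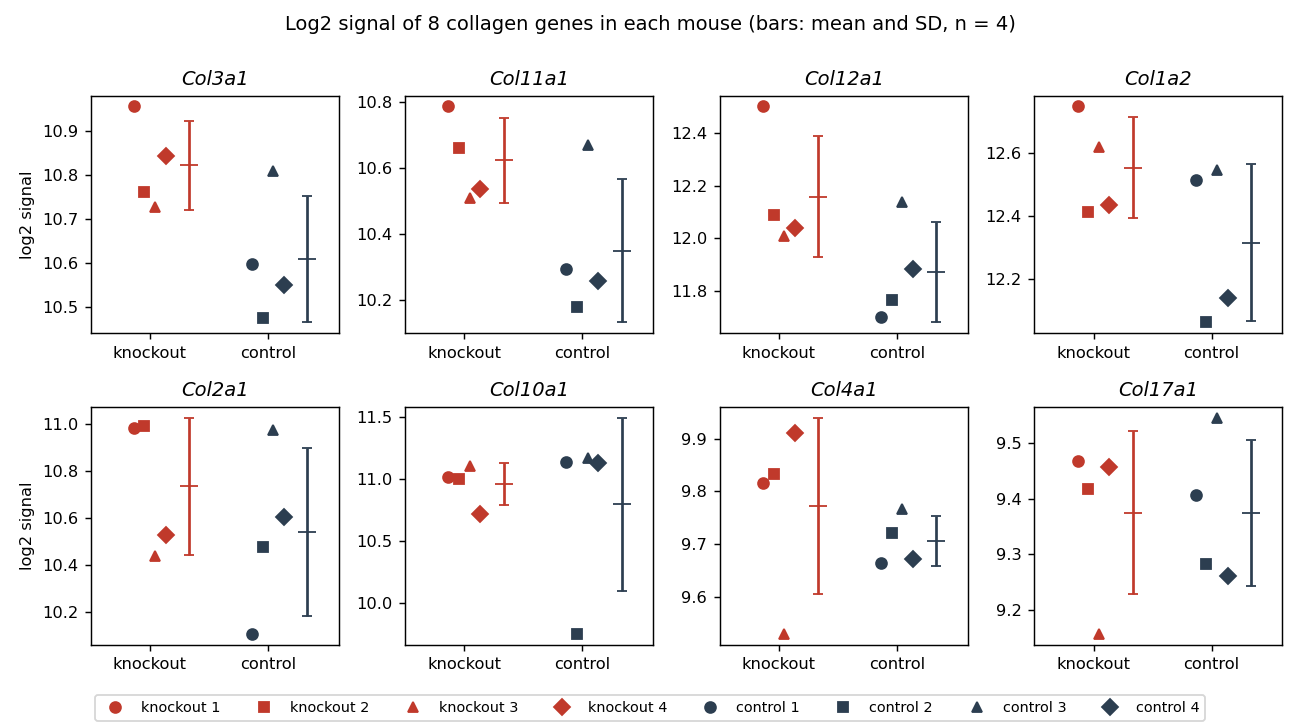
Log2 signal of 8 collagen genes in each mouse (points, knockouts left of controls), with the group mean and SD (bars, n = 4 each); each panel has its own axis, which does not start at 0. In Col3a1, Col11a1 and Col12a1 control 3 lies among the knockouts, and in Col10a1 control 2 lies at 9.75 below all other mice.

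Fibril-associated collagens sit on the surface of fibrils and link them to the surrounding matrix, and 7 of 9 had a higher mean in the knockouts (median difference 0.05). Col12a1, which decorates type I fibrils, was at 12.50, 12.09, 12.01 and 12.04 in knockouts 1 to 4, against 11.70, 11.76, 12.14 and 11.88 in controls 1 to 4. Its difference of 0.29 ± 0.13 (fold 1.22) was 0.173 without knockout 1, which stood above the rest of its group. Col14a1, a close relative, was at 10.44, 10.67, 10.01 and 10.86 in knockouts 1 to 4, against 10.27, 10.09, 10.48 and 10.25 in controls 1 to 4. Here the knockouts spread wider than the controls, around a difference of 0.22 ± 0.17 that was 0.101 without knockout 4 and 0.386 without knockout 3. Col9a1, a chain of the type IX that coats cartilage fibrils, was at 10.04, 10.15, 9.71 and 9.82 in knockouts 1 to 4, against 9.46, 9.66, 10.10 and 9.78 in controls 1 to 4, with control 1 lowest as in Col2a1. Its difference of 0.18 ± 0.14 was 0.0855 without control 1, 0.110 without knockout 2 and 0.300 without control 3. Col19a1 had a difference of -0.07 ± 0.06, and the other genes of the class lay between -0.01 and 0.05.

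Type VI chains form beaded microfibrils around cells, and 5 of 6 had a higher mean in the knockouts (median difference 0.10). Col6a1 was at 10.73, 10.50, 10.31 and 10.52 in knockouts 1 to 4, against 10.19, 10.38, 10.61 and 10.28 in controls 1 to 4 (0.16 ± 0.11). Col6a2 was at 10.21, 10.02, 9.86 and 9.98 in knockouts 1 to 4, against 9.70, 9.86, 10.09 and 9.85 in controls 1 to 4 (0.15 ± 0.10). In both genes control 1 was lowest and knockout 1 highest, and the groups overlapped. Without knockout 1 the differences were 0.0839 for Col6a1 and 0.0814 for Col6a2, without control 1 they were 0.0978 and 0.0871, and without control 3 that of Col6a1 was 0.237. Col6a5 had the most negative difference of the 44 genes, at -0.12 ± 0.10, with 7.84 to 7.92 in knockouts and 7.75 to 8.26 in controls.

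Basement membrane collagens had 4 of 6 genes with a higher mean in the knockouts and a median difference of 0.01. Col4a1 and Col4a2 encode the chains found in nearly all basement membranes, those of vessels included. Col4a1 was at 9.82, 9.83, 9.53 and 9.91 in knockouts 1 to 4, against 9.66, 9.72, 9.77 and 9.67 in controls 1 to 4 (0.07 ± 0.08). Col4a2 was at 9.72, 9.78, 9.41 and 9.89 in knockouts 1 to 4, against 9.56, 9.78, 9.76 and 9.62 in controls 1 to 4 (0.02 ± 0.10). Knockout 3 was the lowest mouse in both and knockout 4 the highest, unlike in the fibril-forming genes. Col4a3 (-0.05 ± 0.09) and Col4a5 (-0.06 ± 0.07), chains of more restricted networks, had lower means in the knockouts, and Col4a3, Col4a4, Col4a5 and Col4a6 lay between 7.40 and 8.32 in all mice.

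Short-chain collagens form open lattices. Col10a1, made by hypertrophic chondrocytes where cartilage turns to bone, was at 11.02, 11.00, 11.10 and 10.71 in knockouts 1 to 4, against 11.14, 9.75, 11.17 and 11.13 in controls 1 to 4. All 4 knockouts lay below controls 1, 3 and 4 and above control 2, and the difference of 0.16 ± 0.30 was -0.19 without control 2. Col8a1, a chain of vessel walls and other matrices, was at 11.22, 11.19, 10.89 and 11.29 in knockouts 1 to 4, against 10.92, 11.03, 11.09 and 10.85 in controls 1 to 4, and knockout 3 was the mouse that fell among the controls (0.17 ± 0.09).

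The remaining classes differed little between groups. Col17a1, the transmembrane collagen of hemidesmosomes in basal epithelial cells, was at 9.16 to 9.47 in knockouts and 9.26 to 9.55 in controls (0.0009 ± 0.09). Col18a1, a basement membrane proteoglycan core and the source of endostatin, was at 9.17 to 9.28 in knockouts and 9.10 to 9.25 in controls (0.04 ± 0.05). Col7a1, the anchoring fibril chain, had the smallest spread over the 8 mice, with 8.83 to 8.91 in knockouts and 8.80 to 8.97 in controls (0.0013 ± 0.05).

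**Figure D3:**
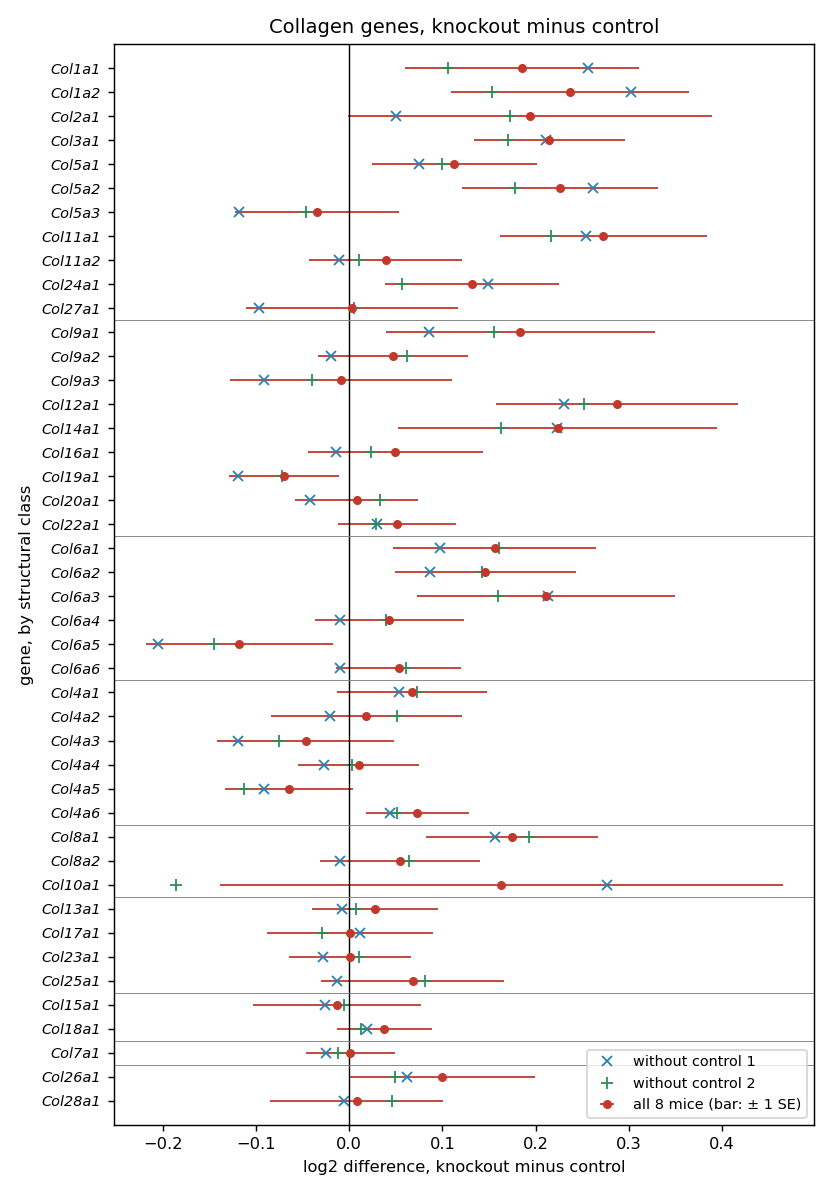
Log2 difference of knockout minus control for each collagen gene, by structural class, over all 8 mice (circles, with ± 1 SE), without control 1 (crosses) and without control 2 (plus signs). Most circles lie above 0 (37 of 44), and 22 genes are above 0 without control 1.

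The differences were not even over signal. The 12 collagens with a mean signal of at least 10 were Col1a1, Col1a2, Col2a1, Col3a1, Col6a1, Col6a3, Col8a1, Col10a1, Col11a1, Col12a1, Col14a1 and Col26a1, a split chosen after the values were seen. All 12 had a higher mean in the knockouts, with differences of 0.10 to 0.29 and a median of 0.203, where 56.9% of the 7212 clusters of such signal were higher (median 0.0099). Of the 32 other collagens 25 were higher (median 0.0328), where 48.6% of all clusters of lower signal were. Without control 1 the dimmer genes split into 10 higher and 22 lower with a median of -0.0122, while the 12 brighter ones stayed higher with a median of 0.218. When the Y-linked signal entered as a covariate, the 12 stayed higher with a median of 0.141, and without control 2 all but Col10a1 did. In bulk tissue, fewer cells of a type and less RNA per cell cannot be told apart.

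The median SD of a collagen over the 8 mice was 0.141, against 0.0977 over all clusters, and for the 12 brighter genes it was 0.226, against 0.073 for clusters of such signal. Single SDs ran from 0.0527 for Col7a1 to 0.478 for Col10a1. Within groups the median SD of a collagen was 0.109 in knockouts and 0.160 in controls, against 0.0837 and 0.0962 over all clusters. The SD was larger in controls than in knockouts for 34 of the 44 genes (77.3%, against 57.4% of all clusters). Control 1 was the lowest mouse for 24 collagens (16.7% of all clusters) and control 2 for 10 (18.4%), whereas control 3 was the highest for 20 (15.3%) and knockout 1 for 13 (14.3%). These counts depended on signal. Of the 32 dimmer collagens, 21 were lowest in control 1 and 19 highest in control 3, against 20.5% of clusters of lower signal for each. Of the 12 brighter ones, 6 were lowest in control 2 (21.7% of clusters of such signal) and 7 highest in knockout 1 (16.4%).

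The low and high mice were not the same for all types. Averages over sets of chains are given beside lists of markers for tissues that make them, and no correlation between sets and lists was computed. Single chains could depart from their set. Averaged as deviation from each gene's mean, the 6 cartilage collagen chains lay at 0.19, 0.17, -0.08 and -0.05 in knockouts 1 to 4, against -0.29, -0.14, 0.25 and -0.06 in controls 1 to 4. The 13 measured cartilage markers lay at 0.30, 0.42, -0.19 and -0.05 in knockouts 1 to 4, against -0.42, -0.14, 0.21 and -0.13 in controls 1 to 4. Control 1 was lowest in both, and knockouts 1 and 2 and control 3 were the high mice in both. These mice were not particular to cartilage. Olfactory ensheathing glia markers were also high in knockouts 1 and 2 (0.14 and 0.08) and low in control 1 (-0.11), though lowest in knockout 3 (-0.17). Of the 6 chains, Col11a1 was lowest in control 2 (10.18, against 10.29 in control 1), and the others were lowest in control 1. Col10a1, a cartilage collagen outside this set, was at 11.14 in control 1, among its high mice. Of the cartilage markers 12 of 13 had a higher mean in the knockouts (median difference 0.24, against 0.0024 over all clusters), with a median of 0.130 without knockout 1, 0.126 without knockout 2, 0.131 without control 1 and 0.403 without control 3. Among them were Hapln1, the link protein of cartilage proteoglycan, at 0.57 ± 0.28, and Acan, its core proteoglycan, at 0.35 ± 0.21.

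The 5 chains of types I, III and V other than Col5a3 lay at 0.26, -0.0049, 0.0996 and 0.04 in knockouts 1 to 4, against -0.02, -0.26, 0.13 and -0.24 in controls 1 to 4. Col5a3, with a lower mean in the knockouts (-0.03), was not in this set. The 8 measured bone markers lay at 0.23, -0.07, 0.33 and -0.07 in knockouts 1 to 4, against 0.20, -0.40, 0.05 and -0.26 in controls 1 to 4, so controls 2 and 4 were lowest in both sets. The high mice differed. Bone markers were highest in knockout 3 and at 0.20 in control 1, while the chains were highest in knockout 1 and at -0.02 in control 1. All 8 had a higher mean in the knockouts (median difference 0.21), for example Ibsp, the bone sialoprotein gene, at 0.35 ± 0.19. Without control 2, 7 of 8 did and the median was 0.107, and it was 0.122 without knockout 3. The 11 fibroblast markers lay at 0.18, 0.02, -0.03 and 0.10 in knockouts 1 to 4, against -0.03, -0.16, 0.02 and -0.0990 in controls 1 to 4, so controls 2 and 4 were lowest and knockout 1 highest here too. Of these markers, 8 of 11 had a higher mean in the knockouts (median difference 0.20, or 0.0569 without control 2), and 3 were higher at an unadjusted limma p under 0.05 (2.62% of all clusters). Dcn, Lum and Postn belong both to this list and to the fibril-binding genes. Lum and Postn are among the genes higher at that p in both, so these counts are not separate. The marker lists were chosen with earlier results of these data known. Col4a1 and Col4a2 and the 12 endothelial and mural markers were both lowest in knockout 3 (-0.25 for the 2 chains and -0.26 for the markers) and highest in knockout 4 (0.19 and 0.21). Control 2 was also high in myeloid markers (0.83) and low in erythroid ones (-0.81). The part of cartilage, bone, fibroblast and vessel content in the collagen differences was not tested. Y-linked signal entered only as a covariate. It was low in knockouts 1, 2 and 4 and in control 1, so it was unbalanced between genotypes and could not be fully separated from them.

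**Figure D4:**
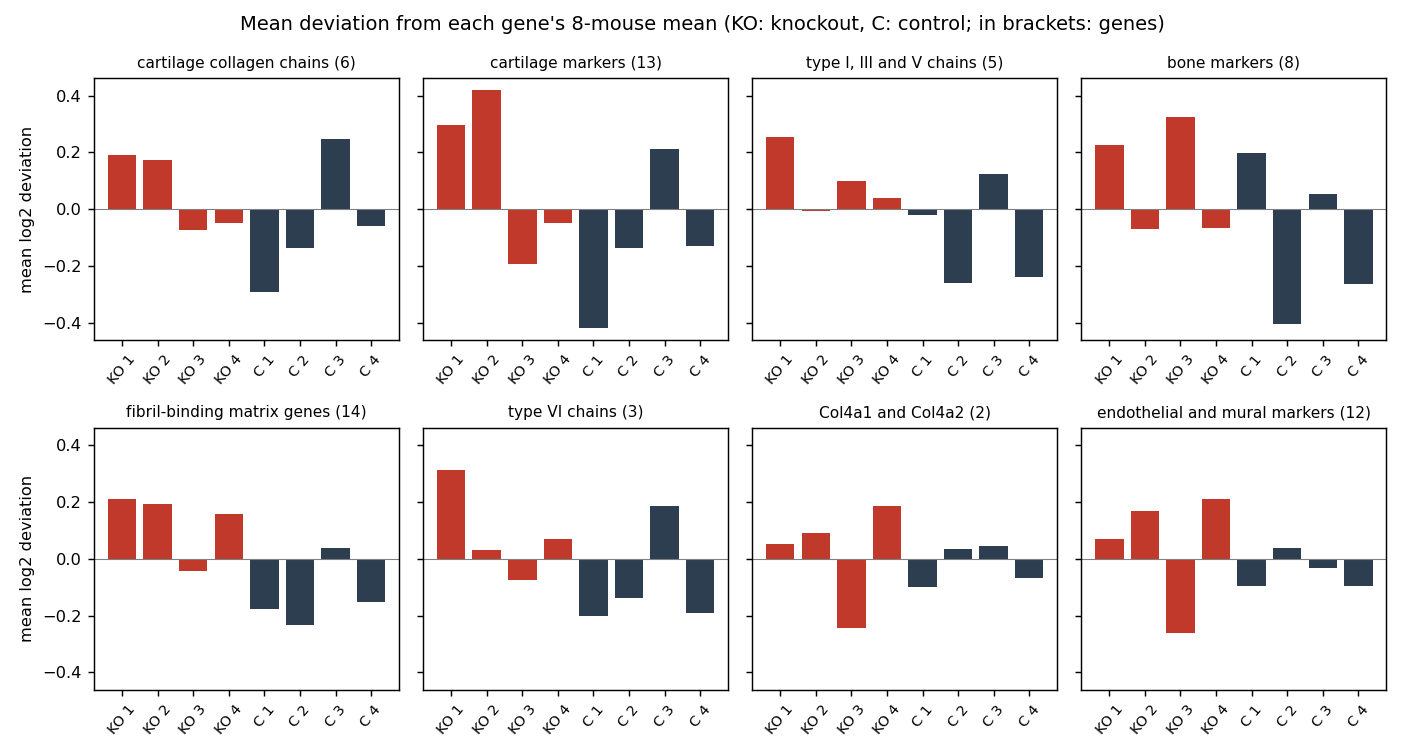
Mean log2 deviation from each gene's 8-mouse mean in each mouse (bars from 0, knockouts left of controls) for 4 sets of collagen chains and 4 sets of markers or matrix genes, with the number of genes in brackets. Control 1 is lowest in cartilage chains (-0.29) and cartilage markers (-0.42), and control 2 in type I, III and V chains (-0.26) and bone markers (-0.40). The set of type I, III and V chains leaves out Col5a3, and that of type VI chains holds Col6a1, Col6a2 and Col6a3 only.

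Chains that assemble into 1 trimer followed each other from mouse to mouse. Of 12 partner pairs, 9 had a Pearson correlation over the 8 mice with an adjusted p under 0.05 (two-sided exact permutation test, adjusted over the 12), and all 12 coefficients were positive. Col1a1 and Col1a2 had r = 0.989 (exact permutation p = 9.9e-05, adjusted 8.9e-04, rho = 0.952) and r = 0.958 without controls 2 and 4, the mice farthest from the median. Col6a1 and Col6a2 had r = 0.983 (exact permutation p = 1.5e-04, adjusted 8.9e-04, rho = 0.952) and r = 0.961 without knockout 1 and control 1.

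Other pairs depended more on single mice. Col4a1 and Col4a2 had r = 0.932 (exact permutation adjusted p = 0.00536), which was 0.745 without knockouts 3 and 4. For Col2a1 and Col11a1, which meet in cartilage fibrils, r was 0.760 (exact permutation adjusted p = 0.0434), and it was 0.954 without controls 2 and 4. Its rank correlation missed the threshold (rho = 0.667, exact permutation adjusted p = 0.0997). Col11a1 had a higher r with Col3a1, at 0.951 over the 8 mice, a pair outside the 12. The pairs that did not reach the threshold were Col5a1 and Col5a2 (r = 0.725), Col4a5 and Col4a6 (0.519) and Col8a1 and Col8a2 (0.413). Correlation was general among the collagens, since all 946 pairs of the 44 genes had a median r of 0.519 and an upper quartile of 0.721. Partner pairs had a median r of 0.798, and 11 of the 12 lay above the median of all pairs. Pairs outside the 12 reached 0.982 (Col9a1 and Col2a1) and 0.962 (Col19a1 and Col6a5). Some partner pairs are also neighbours on their chromosome: Col6a1 and Col6a2, Col4a1 and Col4a2, Col4a3 and Col4a4, and Col4a5 and Col4a6. Col3a1 and Col5a2, neighbours that are not among the 12 pairs, had r = 0.904. The permutation test was run on the 12 pairs only. Each pair shares its arrays, and the difference between partner and other pairs was not tested.

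**Figure D5:**
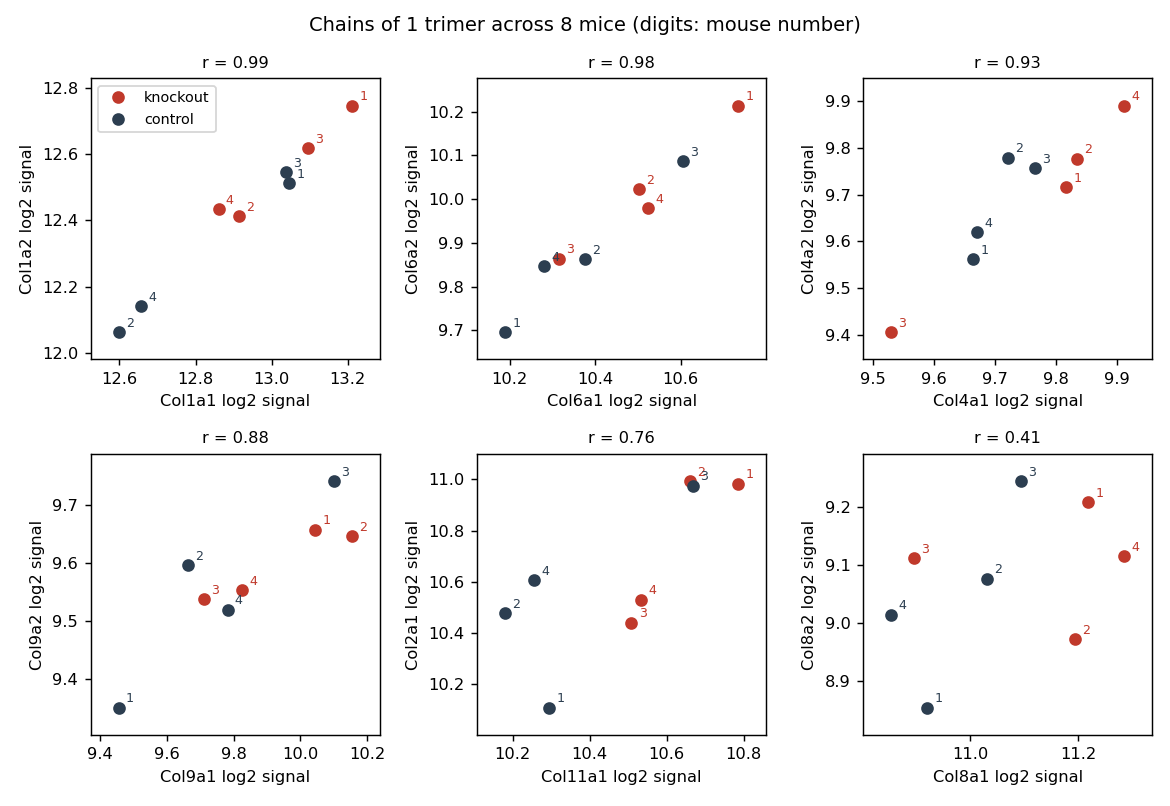
Log2 signals of 6 pairs of chains that assemble together, with 1 point per mouse (red knockout, dark control, digits giving the mouse number within its group) and Pearson r above each panel. Col1a1 and Col1a2 lie close to a line (r = 0.989), and Col8a1 and Col8a2 do not (r = 0.413).

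Genes that make, process or bind collagen had 0 members past adjustment over all genes in each of the 8 lists. The lists were chosen with earlier results of these data known, and the genes of a list share the same mice. Counts of members are therefore descriptions and not a test of the lists. The 14 genes of fibril-binding proteoglycans and matrix proteins all had a higher mean in the knockouts, with a median difference of 0.30, and 6 were higher at an unadjusted limma p under 0.05 (Aspn, Ogn, Postn, Omd, Lum and Fmod), where 51.4% of all clusters had a higher mean and 2.62% were higher at that p. Aspn, asporin, a small proteoglycan that binds type I collagen, was at 11.96, 11.52, 11.61 and 11.62 in knockouts 1 to 4, against 11.19, 11.01, 11.45 and 11.19 in controls 1 to 4. Its groups did not overlap (0.47 ± 0.12, fold 1.38, limma adjusted p = 0.673), where 1.62% of all clusters had every knockout above every control. Aspn was named as the member of smallest p in its list. Without control 1 the list had 13 of 14 genes higher and a median of 0.194. Members at p under 0.05 numbered 3 without knockout 1 and 8 without knockout 3 or control 3.

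For the counts of higher means that follow, the share over all clusters was 51.4%, and each gene named was the member of smallest p in its list. In the enzymes of prolyl and lysyl hydroxylation, which stabilise the helix and prepare crosslinks, 10 of 15 genes had a higher mean. Crtap, a partner of prolyl hydroxylases, was at 0.16 ± 0.07 and just above every control in each knockout (1.62% of all clusters). Among genes of folding and export 7 of 10 were higher. Mia3, which loads procollagen for export from the endoplasmic reticulum, was lower in every knockout than in any control (-0.13 ± 0.05), as were 1.48% of all clusters. Propeptide cleavage and crosslinking had 9 of 11 genes higher, with the protease gene Tll1 at 0.26 ± 0.09. Collagen breakdown had 9 of 11 higher, with Ctsk, the collagen-degrading cathepsin of osteoclasts, at 0.35 ± 0.12. Collagen receptors had 6 of 8 higher, with the integrin gene Itga2 at 0.20 ± 0.10, basement membrane partners 9 of 11, with the nidogen gene Nid2 at 0.17 ± 0.08, and regulators of collagen transcription 11 of 13, with Tgfb2 at 0.22 ± 0.06. Median differences of these 7 lists lay between 0.05 and 0.14, against 0.0024 over all clusters. Without knockout 1 the median was 0.00058 for hydroxylation (8 of 15 genes higher), 0.0112 for folding and export (6 of 10), 0.0861 for breakdown and 0.0339 for the regulators (9 of 13). Over all leave-one-mouse-out fits the 7 medians ran from 0.00058 to 0.206.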

How the data were processed

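The authors measured total RNA of the olfactory mucosa on GeneChip Mouse Gene ST arrays and deposited 1 log2 signal for each transcript cluster and mouse. Affymetrix Expression Console is named in the submitters' processing notes, while its version and the summarisation and normalization algorithm are not given in the sources used here. Values ran from 2.65 to 14.9 and array medians differed by 0.0391 at most, so no further normalization was applied. The number of arrays limits the precision.

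Of 35557 clusters, 21789 had 1 gene symbol, 1621 several and 12147 none. Knockouts (n = 4) and controls (n = 4) were compared with limma 3.58.1 in R 4.3.3 (lmFit and eBayes, two-sided), with Benjamini-Hochberg adjustment over the 21789 clusters at 0.05, and the test was checked on simulated data. Replicate numbers follow accession order and pair nothing. The labels name no litters, so litter could not enter the fit. By the study's methods the mice of an experiment came from a small number of litters, each with knockouts and controls. Mice of the same litter are not independent, while the p values treat all 8 as independent. Correlations were tested by exact permutation over the 8 mice.

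The members and lists were chosen with earlier results of these data known. Genes named with differences were 14 example chains, the 5 collagens of smallest p in each direction, the 3 of largest SD, Emx2 and the member of smallest p in each companion list. Hapln1, Acan and the 5 fibril-binding genes besides Aspn at p under 0.05, like Col7a1, were named after their values were seen. Alternatives were quantile normalization, scaling to mature OSN genes, a filter on dim clusters, array weights, a Y-linked covariate, the methods' t-test, gene means and leaving out each mouse.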

Additional observations from a re-analysis of the deposited data

Results flagged for a closer look

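Of 88 groups of 4 mice (44 collagens in 2 genotypes), 7 held a mouse far from the other 3, where chance gives about 1 in 20. The groups share the same arrays and are not independent, and the share over all clusters was not counted. The 7 are therefore not set apart from chance. Col10a1 was at 9.75 in control 2, with the other controls at 11.13 to 11.17. Col12a1 was at 12.50 in knockout 1 (others 12.01 to 12.09), Col16a1 at 8.96 in knockout 1 (others 8.84 to 8.85) and Col5a3 at 8.17 in knockout 1 (others 8.10). In knockout 3, Col17a1 was at 9.16 (others 9.42 to 9.47), Col25a1 at 8.26 (others 8.52 to 8.54) and Col23a1 at 8.76 (others 8.95 to 8.96).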

How the results depend on the processing

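No collagen passed limma's adjusted threshold in any setting, while the count over all clusters (0) was 2 with scaling to mature OSN genes, 2 among clusters above the median signal, 5 with array weights and 1 without control 3. The count higher at an unadjusted p under 0.05 (2) was 1 with quantile normalization, 4 with array weights, 0 with the Y-linked covariate, 0 by the methods' t-test, and 0 to 12 when 1 mouse was left out (12 without control 3, 6 without knockout 3). Shares of all clusters at that p were not counted for these settings. The count lower was 0 to 2 (2 without control 1). The count with a higher mean (37) was 22 of 23 among clusters above the median signal, where fewer genes enter. Of all such clusters, 56.6% were higher. The count ran from 22 without control 1 (48.1% of all clusters higher) to 41 without control 3 (53.6%) when 1 mouse was left out. The median difference (0.052) was 0.163 among clusters above the median signal and ran from 0.0030 to 0.107 without 1 mouse. Of 31 named genes, 8 had a sign turn: Col4a1 (-0.0276) and Col4a2 (-0.0705) with the Y-linked covariate, Col17a1 with quantile normalization (-0.0111) and that covariate (-0.111), Col19a1 (0.0081), Col4a5 (0.0131), Col4a3 (0.0313) and Col5a3 (0.0436) when scaled to mature OSN genes, and Col4a3 (0.0322) and Col5a3 (0.0370) with the covariate. Without 1 mouse Col4a2 ran from -0.0459 to 0.115, Col10a1 from -0.186 to 0.288, Col17a1 from -0.0368 to 0.0733, Col4a3 from -0.120 to 0.0165 and Col5a3 from -0.118 to 0.0249. Scaling to mature OSN genes moved the median of all clusters to 0.0805, with 84.0% of them higher. The same scaling gave 43 of 44 collagens a higher mean, with a median of 0.130. Without the 2 farthest mice, the adjusted p of r missed the threshold for Col4a1 and Col4a2 (0.745), Col4a3 and Col4a4 (0.406), Col6a1 and Col6a3 (0.822) and Col9a1 and Col9a2 (0.826), with fewer mice. With group means removed, r of Col4a5 and Col4a6 was 0.855 and passed. The cause of the other shifts was not tested. No paired analysis was possible because the labels give no replicate number or litter.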
